A study of Homo sapiens with 24 samples.

Results

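The module described here comprised the SR proteins, the CLK and SRPK kinases that phosphorylate them, and the heterogeneous nuclear ribonucleoproteins (hnRNPs), taken as a list of 40 genes by symbol. Of these, 39 were matched to an Ensembl identifier among the 51715 genes of the deposited tables, and SRSF8 was not analysed here. The SR and CLK class held 20 genes, namely 12 SRSF genes, TRA2A and TRA2B, 4 CLK genes and 2 SRPK genes. The hnRNP class also held 20, namely 18 HNRNP genes with PTBP1 and PTBP2. Poly(A)-selected RNA had been sequenced from the cell lines A-431 (epidermoid carcinoma), U-251MG (glioblastoma) and U-2 OS (osteosarcoma). Each line was represented by 4 total and 4 cytoplasmic libraries, 24 in all, and no drug or genetic change is named for any of them. Each tissue of origin was represented by 1 cell line. Libraries are called here by the serial number in their labels: A-431 total 9 to 12 and cytoplasmic 21 to 24, U-251MG total 5 to 8 and cytoplasmic 17 to 20, U-2 OS total 1 to 4 and cytoplasmic 13 to 16. U-2 OS cytoplasmic 13, whose read totals matched no entry in the read table of the study, was kept out of the comparisons, so U-2 OS was compared with 4 total and 3 cytoplasmic libraries.

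SR proteins bind exonic sequences in pre-mRNA through RNA recognition motifs and recruit the spliceosome through a tail of alternating arginine and serine residues, the RS domain. SRPK kinases phosphorylate RS domains in the cytoplasm, which allows import into the nucleus, and CLK kinases phosphorylate them further inside the nucleus, releasing SR proteins from storage in nuclear speckles. The hnRNPs coat nascent RNA, often block splice sites that SR proteins favour, and many of them shuttle between nucleus and cytoplasm. Several members of both classes limit their own levels through alternative exons or retained introns that keep their transcripts in the nucleus or mark them for decay.

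Coding sequences are shown for members on which the results turn, because base composition is a property that differed between transcripts of the fractions. Each line gives a stretch of 10 codons, 5′ to 3′ on the coding strand, from the GENCODE v44lift37 transcripts of GRCh37. It is the stretch richest in arginine and serine together for the SR and CLK members, and in glycine for the hnRNPs. The contrast between the stretches of the classes is therefore set by the search. Capitals mark arginine codons in the SR and CLK members and glycine codons in the hnRNPs.
SRSF2: AGGCGGCGTCGCCGCagcCGAtccCGGagt
SRSF5: agtAGGtcaAGAagcAGGtctCGAtccCGG
SRSF9: tcaCGGtctCGGtctgggtcaAGGggcCGT
CLK2: CGACGAAGAagtCGCtcctggtcaagtagt
CLK4: agtaaatcttcagtcCGCagcAGGAGAagc
HNRNPD: gcgGGAagcGGAgccGGGaccGGGGGCGGA
HNRNPU: agaGGTGGTGGCGGTGGAGGAagtGGTGGA
Arginine made up 4.12% to 24.4% of the codons of the 19 SR and CLK members (median 18.01%) and 3.401% to 8.09% of those of the 20 hnRNPs (median 6.64%). Glycine made up 6.67% to 26.3% of hnRNP codons and was not counted in the SR and CLK class. Arginine can be encoded by AGA and AGG or by the more GC-rich CGN codons, and members differed in this choice. SRSF2 used 42 CGN codons of 53, CLK2 59 of 72, SRSF9 20 of 30, SRSF5 26 of 56 and CLK4 22 of 49. Whether codon choice went with the ratio of the fractions was not tested. The GC content of whole transcripts overlapped between the classes, at 35.9% to 55.9% in the SR and CLK class (median 41.6%) and 37.4% to 59.4% in the hnRNP class (median 43.2%).

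Gene counts per library ranged from 19918911 to 32394170. The fractions went against their labels in their nuclear RNA: MALAT1, which stays in nuclear speckles, and NEAT1, the scaffold of paraspeckles, were both more abundant in the libraries labelled cytoplasmic. MALAT1 had 8.37 to 18.5 CPM (gene counts scaled by TMM factors to a common library total) in A-431 total and 25.0 to 39.2 CPM in A-431 cytoplasmic libraries, with a log2 ratio of total over cytoplasmic of -1.42 for the A-431, -1.36 for the U-251MG and -0.82 for the U-2 OS libraries. NEAT1 had 177.5 to 321 CPM in A-431 total and 635 to 779 CPM in A-431 cytoplasmic libraries, and log2 ratios of -1.68, -1.35 and -0.54 in the same order of lines. Neither RNA overlapped between the fractions in any line, and the adjusted p-values of edgeR lay between 3.64e-05 and 0.0843. In GENCODE v44lift37, genes on the opposite strand cover 83.7% of the MALAT1 exon bases, whereas no annotated gene overlaps NEAT1. Reads were counted without strand, so the count of MALAT1 is uncertain. The counts were made with the older Ensembl GRCh37.59 models, and whether these hold the overlaps given here and below was not checked. By the methods of the study, the extractions had been checked by electrophoresis, in which a peak of nuclear RNA marked the total preparations and was absent from the cytoplasmic ones that were kept. The ratios below follow the labels. All total libraries, U-2 OS cytoplasmic 14 and U-251MG cytoplasmic 19 and 20 were sequenced on flow cell A. The remaining cytoplasmic libraries ran on flow cell B, except U-2 OS cytoplasmic 13, whose flow cell is unknown. For A-431 this leaves each fraction on a flow cell of its own, and their effects cannot be told apart. Of the markers fixed for the lines, EGFR averaged 16085 CPM in A-431 total libraries against 240.9 for U-251MG and 37.5 for U-2 OS, SOX2 averaged 120 CPM in U-251MG against 18.5 in U-2 OS and 0.0448 in A-431, and COL1A1 averaged 1230 CPM in U-2 OS against 12.7 in U-251MG and 5.82 in A-431. In total RNA, 4 of the 6 A-431 markers, 4 of the 5 U-251MG markers and 2 of the 5 U-2 OS markers were highest in their own line. KRT14, KRT17 and NES were highest in U-2 OS instead, and SPARC, CDH11 and RUNX2 in U-251MG. The sources name 4 biological replicates per line without tying libraries to cultures, and the p-values below describe only the spread between these libraries.

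The hnRNPs took the larger share of the counts. Summed over its members, the hnRNP class reached 8395 to 8788 CPM in A-431 total, 8542 to 9362 CPM in U-251MG total and 8836 to 9648 CPM in U-2 OS total libraries, and the SR and CLK class 3102 to 3330, 2977 to 3207 and 2852 to 3033 CPM in the same groups. Such sums also depend on transcript length. Levels of different genes can be set beside each other only per length, for which the deposited RPKM values (nominally reads scaled to exon length and library size) were used. These values exceed CPM per kilobase by factors that differ between members, as given below. The size of the gap between the classes therefore depends on the measure. In RPKM the hnRNP class summed to 35059 to 37248, 34666 to 39506 and 40080 to 44649 in A-431, U-251MG and U-2 OS total libraries, and the SR and CLK class to 9827 to 10504, 8563 to 9474 and 10044 to 11206. HNRNPA2B1, which binds purine-rich RNA and sorts RNA for transport (chromosome 7, 26210771 to 26241149), had the highest RPKM of all members. It had 10018, 10425, 10956 and 11143 RPKM in A-431 total libraries, 11522, 9884, 10255 and 10627 RPKM in U-251MG total libraries and 11556, 11938, 10802 and 12535 RPKM in U-2 OS total libraries. HNRNPU, a scaffold-attachment protein and regulator of U2 snRNP maturation, came second in total RNA of each line. It had 3085, 3151, 3255 and 3295 RPKM in A-431 total libraries, 4152, 3727, 4038 and 3810.3 RPKM in U-251MG total libraries and 4300, 4223, 3943 and 4525 RPKM in U-2 OS total libraries. The levels of these genes did not overlap in any library.

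In the SR and CLK class, TRA2B, a splicing activator of GAA-rich exons, and SRSF7, an SR protein with a zinc knuckle, had the highest RPKM averaged over the 6 groups, but the order changed from line to line. TRA2B had 1361, 1528, 1264 and 1316 RPKM in A-431 total libraries, 1467, 1441, 1535 and 1384 RPKM in U-251MG total libraries and 1149, 1254, 1204 and 1143 RPKM in U-2 OS total libraries. SRSF7 had 1132, 1225, 1171 and 1268 RPKM in A-431 total libraries, 1039, 1018, 1200.5 and 917 RPKM in U-251MG total libraries and 1274, 1333, 1116 and 1310.3 RPKM in U-2 OS total libraries. TRA2B lay above SRSF7 in U-251MG without overlap, and the 2 genes overlapped in the other lines. In U-2 OS total RNA, SRSF3 (1332 ± 106 RPKM) and SRSF5 (1305 ± 45.1 RPKM) averaged above both, and in A-431 total RNA SRSF5 (1253 ± 147 RPKM) averaged above SRSF7 (SD, n = 4 each), with overlapping libraries. RPKM exceeded CPM per kilobase of the longest coding transcript by a factor that ranged between members from 1.23 for SRSF1 to 64.0 for SRSF2, so the order depends on the measure. By CPM per kilobase, HNRNPA2B1 remained in place 1, SRSF1 stood at place 2 in place of 23, TRA2B at place 21 in place of 12 and HNRNPU at place 10 in place of 2. SRSF12 was last of the 39 by either measure, and CLK1, CLK2, PTBP2 and CLK4 held places 32, 35, 36 and 37 by RPKM.

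The first question was whether the transcripts of these regulators were equally represented in total and cytoplasmic RNA. CLK2 had the largest ratio of the module in A-431 and U-251MG, on the side of the libraries labelled cytoplasmic, and the SRPK kinases lay on the opposite side in all 3 lines. CLK2, a nuclear kinase of RS domains (chromosome 1, 155232659 to 155248282), had 20.96, 20.9, 25.5 and 21.2 CPM in A-431 total libraries 9 to 12, against 34.2, 35.8, 36.1 and 32.6 CPM in A-431 cytoplasmic libraries 21 to 24. Every A-431 total library was below every cytoplasmic one, and CLK2 fell by 0.63 on the log2 scale (standard error 0.0741, adjusted p = 6.05e-06 from edgeR, with 16376 genes tested). In U-251MG it had 23.2, 20.7, 21.6 and 16.7 CPM in total libraries 5 to 8, against 39.2, 34.5, 29.1 and 32.7 CPM in cytoplasmic libraries 17 to 20. Again the groups did not overlap, with a log2 ratio of -0.74 ± 0.117 (standard error, SE, adjusted p = 0.000386). In U-2 OS the total libraries had 24.9, 22.2, 28.6 and 25.97 CPM and the 3 cytoplasmic libraries 32.1, 34.6 and 29.1 CPM. There the log2 ratio of -0.32 did not pass the threshold of 0.001 (adjusted p = 0.00152). CLK2 was thus called in 2 of the 3 lines and its libraries were separated in all 3.

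**Figure D1:**
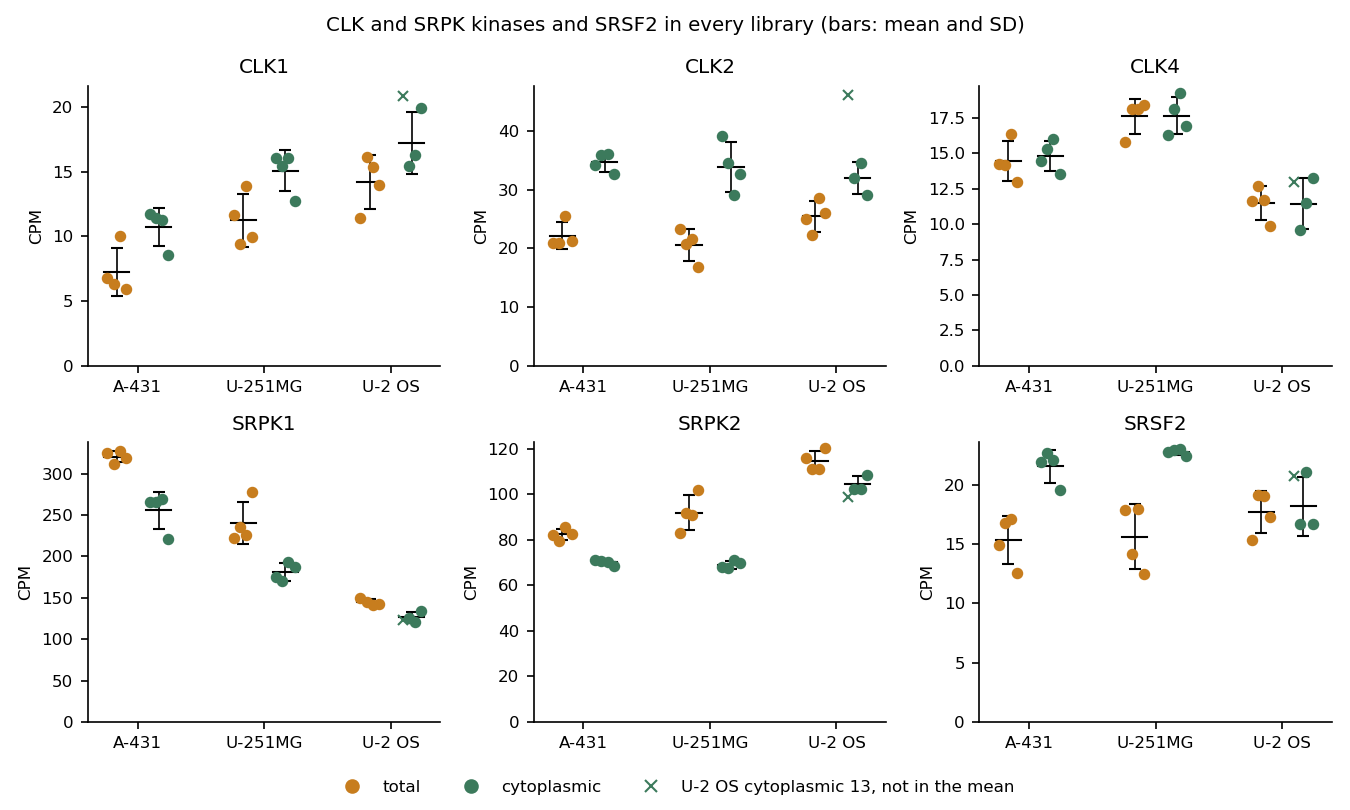
CPM of CLK1, CLK2, CLK4, SRPK1, SRPK2 and SRSF2 (vertical axes from 0) in every total (orange, left) and cytoplasmic (green, right) library of A-431, U-251MG and U-2 OS, with the mean and SD of each group in black and U-2 OS cytoplasmic 13 as a cross outside the mean. CLK2 libraries are lower in total than in cytoplasmic RNA in all 3 lines, SRPK1 and SRPK2 libraries are higher in total, and CLK4 libraries overlap.

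CLK3, a close relative of CLK2 with a GC-rich transcript, was also lower in A-431 total RNA, with 28.3 ± 2.31 CPM in total and 36.6 ± 2.89 CPM in cytoplasmic libraries (SD, n = 4 each), a log2 ratio of -0.36 and an adjusted p of 0.000752. In the other lines, its log2 ratios (U-251MG -0.33, U-2 OS -0.18) missed the threshold (adjusted p = 0.00802 and 0.0720). CLK1, whose own pre-mRNA carries retained introns that respond to CLK activity, had 6.79, 6.33, 10.03 and 5.94 CPM in A-431 total libraries, against 11.7, 11.4, 11.2 and 8.58 CPM in A-431 cytoplasmic libraries. A-431 total 11 reached into the range of the cytoplasmic libraries, and the log2 ratio of -0.53 was not called (standard error 0.143, adjusted p = 0.00520). In U-251MG, CLK1 had 11.7, 9.40, 13.9 and 9.96 CPM in total libraries, against 16.1, 15.5, 16.1 and 12.8 CPM in cytoplasmic libraries. In U-2 OS, CLK1 had 11.4, 16.1, 15.3 and 13.96 CPM in total libraries, against 15.4, 16.3 and 19.98 CPM in the 3 cytoplasmic libraries. The fractions overlapped in both lines, and the log2 ratios of -0.45 and -0.27 were not called (adjusted p = 0.0141 and 0.0587).

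CLK4, the fourth CLK kinase, behaved differently from its relatives. It had 14.3, 14.2, 16.4 and 12.96 CPM in A-431 total libraries, against 14.5, 15.3, 15.99 and 13.5 CPM in A-431 cytoplasmic libraries. The fractions overlapped fully, and the log2 ratios of CLK4 were -0.02 for A-431, -0.02 for U-251MG and 0.01 for U-2 OS, with standard errors of 0.0854, 0.0859 and 0.105. In U-251MG the total libraries had 15.8, 18.1, 18.1 and 18.4 CPM and the cytoplasmic libraries 16.3, 18.1, 19.3 and 16.9 CPM. In U-2 OS the total libraries had 11.6, 12.7, 11.7 and 9.84 CPM and the cytoplasmic libraries 9.61, 11.5 and 13.2 CPM. Of the 4 CLK transcripts CLK4 had the lowest GC content, at 37.3%, with 46.0% in CLK1, 55.4% in CLK2 and 55.9% in CLK3. With an offset for transcript GC content, CLK4 had log2 ratios of -0.32, -0.41 and -0.20 in A-431, U-251MG and U-2 OS, not called in any (adjusted p = 0.00233, 0.00354 and 0.187).

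SRPK1, the main cytoplasmic kinase of SR proteins (chromosome 6, 35800743 to 35889119), had 325, 312, 327 and 319 CPM in A-431 total libraries, against 266, 266, 269 and 221 CPM in A-431 cytoplasmic libraries. All total libraries were higher, and the log2 ratio was 0.34 (standard error 0.0605, adjusted p = 0.000221). In U-251MG, SRPK1 had 223, 235, 226 and 278 CPM in total libraries, against 175, 169.9, 193 and 187 CPM in cytoplasmic libraries. In U-2 OS, SRPK1 had 149, 145, 141 and 143 CPM in total libraries, against 125, 121 and 133 CPM in the 3 cytoplasmic libraries. The fractions were separated in both lines, but the log2 ratios of 0.39 and 0.20 did not pass the threshold (adjusted p = 0.00113 and 0.00343). A gene on the opposite strand, LHFPL5, overlaps 28.1% of the SRPK1 exon bases. SRPK2, a paralogue of SRPK1, had 82.0, 79.3, 85.5 and 82.4 CPM in A-431 total libraries, against 71.1, 70.8, 70.1 and 68.5 CPM in A-431 cytoplasmic libraries. It was called there with a log2 ratio of 0.25 ± 0.0504 (SE, adjusted p = 0.000730). In U-251MG, SRPK2 had 83.1, 91.5, 91.0 and 102 CPM in total libraries, against 67.9, 67.4, 71.2 and 69.7 CPM in cytoplasmic libraries. The groups were separated, at a log2 ratio of 0.39 ± 0.0660 (SE, adjusted p = 0.000535). In U-2 OS, SRPK2 had 116, 111, 111 and 120 CPM in total libraries, against 102, 102 and 108 CPM in the 3 cytoplasmic libraries, and the log2 ratio of 0.14 was not called (adjusted p = 0.0371). The SRPK transcripts had GC contents of 41.2% and 41.6%, below those of CLK1, CLK2 and CLK3.

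These kinase calls depended on how composition and quantity were measured. With the GC offset, CLK2 stayed called in A-431 (log2 ratio -0.46, adjusted p = 0.000779) but not in U-251MG (-0.49, adjusted p = 0.00407), CLK3 and both SRPK genes were no longer called in A-431 (adjusted p = 0.0223 to 0.380), nor was SRPK2 in U-251MG (adjusted p = 0.0569), and in the deposited RPKM values, tested with limma, the log2 ratio of CLK2 in A-431 was -0.03 (adjusted p = 0.818) while SRPK1 remained called at 0.59 (adjusted p = 0.000719). Within flow cell A alone, with 4 total and 2 cytoplasmic libraries of U-251MG, the log2 ratios were -0.61 for CLK2 and 0.36 for SRPK2, without a call (adjusted p = 0.00614 and 0.00946). MALAT1 and NEAT1 lay on the same side as CLK1, CLK2 and CLK3 in all 3 lines, and their part in these results was not tested. Single libraries also decided some kinase calls. In A-431, CLK2 was called whichever library was left out, SRPK1 was not called without total 9, CLK3 was called only without cytoplasmic 21 or total 10 and SRPK2 only without total 10, and CLK1 became called without total 11. In U-251MG, CLK2 was not called without cytoplasmic 17, 18 or 20 or total 6, and SRPK2 was called only without total 5 or 8.

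Among the SR proteins, SRSF2 and SRSF5 were lower in total RNA of A-431, while SRSF3, SRSF4 and SRSF9 were higher in total RNA of U-2 OS. SRSF5, an SR protein also called SRp40 (chromosome 14, 70193617 to 70238722), had 193, 177, 223 and 193 CPM in A-431 total libraries, against 262, 256, 266 and 259 CPM in A-431 cytoplasmic libraries. The groups were separated, with a log2 ratio of -0.39 ± 0.0619 (SE, adjusted p = 8.43e-05). In the other lines the fractions of SRSF5 overlapped. U-251MG had 125, 111, 114 and 118 CPM in total libraries, against 118, 106, 109 and 111 CPM in cytoplasmic libraries. U-2 OS had 188, 187, 183 and 199 CPM in total libraries, against 190.1, 188 and 183 CPM in the 3 cytoplasmic libraries. The log2 ratios there were 0.06 and 0.02 (adjusted p = 0.5002 and 0.788). With the GC offset SRSF5 remained called in A-431 (-0.41, adjusted p = 0.000155), and in the RPKM values its log2 ratio was -0.38 (adjusted p = 0.00941).

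SRSF2, an SR protein that binds both G-rich and C-rich exonic motifs (chromosome 17, 74730197 to 74733415), had 14.9, 16.7, 17.1 and 12.6 CPM in A-431 total libraries, against 21.9, 22.6, 22.1 and 19.5 CPM in A-431 cytoplasmic libraries. Its log2 ratio was -0.47 (standard error 0.0898, adjusted p = 0.000402). In U-251MG the ratio of -0.57 just missed the threshold (adjusted p = 0.00184), with 17.9, 14.2, 17.95 and 12.5 CPM in total libraries, against 22.8, 22.9, 22.98 and 22.4 CPM in cytoplasmic libraries. In U-2 OS the fractions overlapped and the log2 ratio was -0.03 (adjusted p = 0.857). The count of SRSF2 is uncertain. In GENCODE v44lift37, MFSD11 overlaps it on the opposite strand, and overlapping genes cover 27.7% of the SRSF2 exon bases. Reads were counted without strand and only where they fell in 1 gene. The RPKM values of SRSF2 were 391 ± 30.5 in A-431 total and 458 ± 63.4 in A-431 cytoplasmic libraries (SD, n = 4 each), with a log2 ratio of -0.22 (adjusted p = 0.174 from limma). Leaving out A-431 cytoplasmic 21, 22 or 23, or total 9 or 12, also ended the call of SRSF2 (adjusted p of at most 0.00218).

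SRSF9, a short SR protein (chromosome 12, 120899475 to 120933749), had the largest called ratio in U-2 OS, with 129, 139, 131 and 134 CPM in total libraries 1 to 4, against 111, 103 and 109 CPM in cytoplasmic libraries 14 to 16. Every total library was higher, with a log2 ratio of 0.31 ± 0.0524 (SE, adjusted p = 2.80e-05). Its count is uncertain too, since in GENCODE v44lift37 GATC and NRAV overlap 46.7% of the SRSF9 exon bases. SRSF3, the smallest SR protein and a factor in mRNA export, had 374, 421, 368 and 416 CPM in U-2 OS total libraries, against 335, 311 and 331 CPM in U-2 OS cytoplasmic libraries. Its log2 ratio was 0.28 (standard error 0.0548, adjusted p = 0.000174), and in A-431 and U-251MG it was 0.17 and 0.26 without a call (adjusted p = 0.0208 and 0.00308). SRSF4, an SR protein with a long RS domain, had 125, 118, 109 and 120 CPM in U-2 OS total libraries, against 97.2, 97.0 and 97.7 CPM in U-2 OS cytoplasmic libraries. The groups did not overlap, and the log2 ratio was 0.28 (standard error 0.0534, adjusted p = 0.000134). The remaining SR and TRA2 members (SRSF1, SRSF6, SRSF7, SRSF10, SRSF11, SRSF12, TRA2A and TRA2B) were called in no line, and all of their log2 ratios lay between -0.18 and 0.15 except that of SRSF12, a rarely expressed repressor of splicing, which was 0.58 in U-2 OS with a standard error of 0.349 and untested elsewhere.

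**Figure D2:**
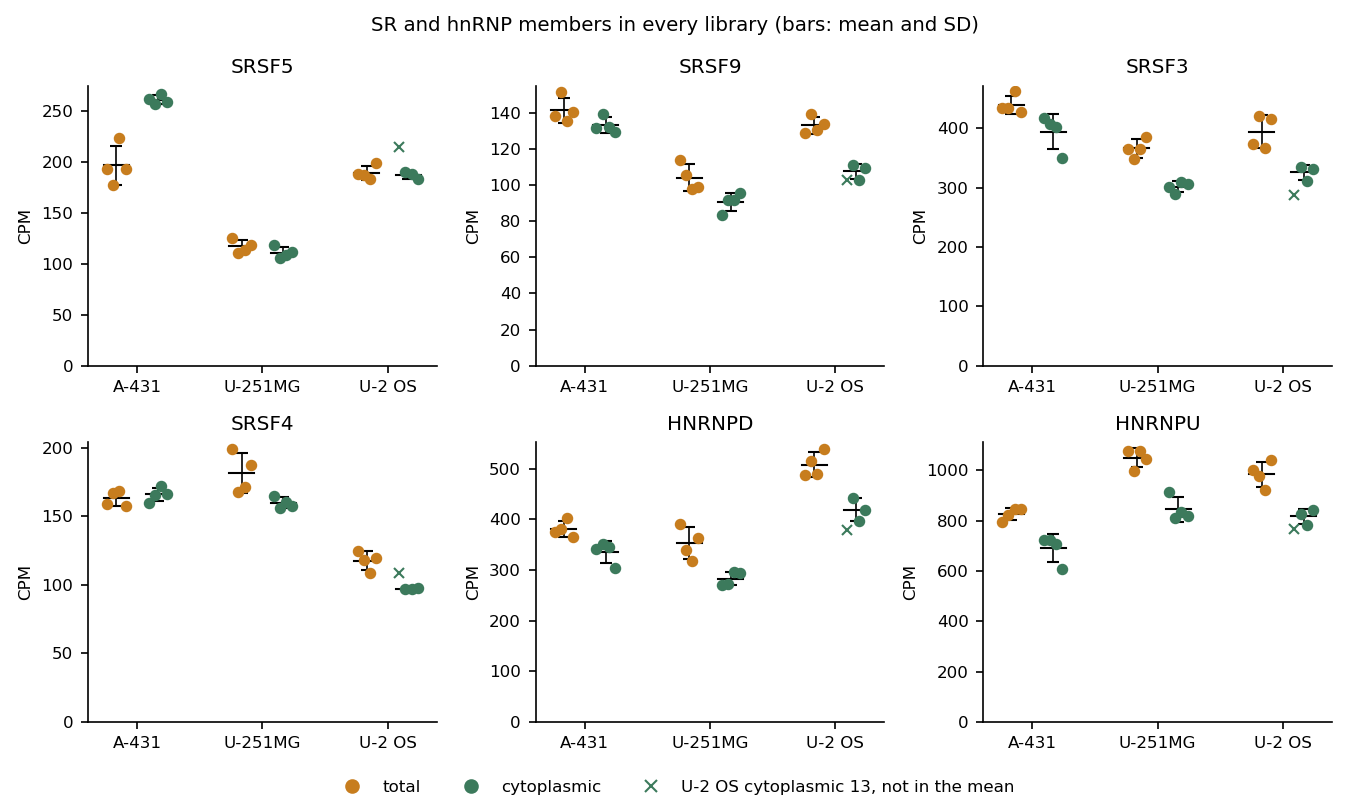
CPM of SRSF5, SRSF9, SRSF3, SRSF4, HNRNPD and HNRNPU (vertical axes from 0) in every total (orange, left) and cytoplasmic (green, right) library of the 3 lines, with group means and SD in black and U-2 OS cytoplasmic 13 as a cross. SRSF5 is lower in total RNA only among the A-431 libraries, whereas HNRNPD and HNRNPU libraries are higher in total RNA in each line.

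No hnRNP was called in A-431 or U-251MG, and 4 were higher in total RNA of U-2 OS. An unadjusted p under 0.05 was reached as higher in total RNA by 7 of the 20 hnRNPs for A-431, 7 for U-251MG and 11 for U-2 OS, beside 28%, 27.3% and 20.3% of all genes tested. PTBP1 in U-251MG was the only hnRNP lower at that limit, where 28.7%, 28.3% and 19.1% of all genes were lower. DESeq2 called 4, 3 and 6 hnRNPs in the same order of lines, all higher, beside 12.8%, 12.3% and 6.36% of the genes it tested. HNRNPD, also known as AUF1, which binds AU-rich elements and promotes decay of short-lived mRNAs (chromosome 4, 83273651 to 83295656), had 488, 516, 489 and 539 CPM in U-2 OS total libraries, against 442, 398 and 419 CPM in U-2 OS cytoplasmic libraries. The fractions were separated, at a log2 ratio of 0.28 ± 0.0531 (SE, adjusted p = 0.000119). HNRNPU (chromosome 1, 245003940 to 245027862) had 1003, 977, 920 and 1040.1 CPM in U-2 OS total libraries, against 827, 784 and 842 CPM in U-2 OS cytoplasmic libraries, with a log2 ratio of 0.27 (adjusted p = 0.000166), and COX20 and another gene on the opposite strand overlap 19% of its exon bases. The other called members were HNRNPA1, a repressor of splice sites, with a log2 ratio of 0.26 (adjusted p = 0.0005003), and HNRNPK, which binds C-rich RNA, with 0.25 (adjusted p = 0.000346). HNRNPA1 has 74 annotated pseudogenes, and reads that map to several places were not counted, so its level is uncertain.

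These 4 hnRNPs had positive ratios without a call in the other lines too. HNRNPU had log2 ratios of 0.27 in A-431 and 0.29 in U-251MG (adjusted p = 0.00122 and 0.00318), and HNRNPD 0.20 and 0.30 (adjusted p = 0.00760 and 0.00466). HNRNPK had 0.26 in both (adjusted p = 0.00148 and 0.00827). HNRNPA1 had 0.16 and 0.20 (adjusted p = 0.0252 and 0.101), and in A-431 its ratio was -0.01 with the GC offset and in RPKM. PTBP1, the polypyrimidine tract repressor of neuronal exons, had -0.01, -0.16 and -0.00 in A-431, U-251MG and U-2 OS, and its transcript had the highest GC content of the module, at 59.4%. With the GC offset, the 4 hnRNP calls of U-2 OS were lost (adjusted p = 0.00608 to 0.0249). SRSF4 and SRSF9 were then still called at log2 ratios of 0.32 and 0.37, while SRSF3 was not (adjusted p = 0.0568). Within flow cell A, where U-2 OS has 4 total libraries and cytoplasmic 14 alone, which is assumed to vary like the others, the log2 ratios of the 7 called members were 0.15 to 0.26 and 0 were called (adjusted p = 0.0343 to 0.253). Without U-2 OS cytoplasmic 15, 0 of these 7 members were called, and without total 2 only SRSF9 was. Without cytoplasmic 14 only SRSF9 and HNRNPD were, without total 4 only SRSF9 and SRSF4, and without cytoplasmic 16 only SRSF9 and HNRNPU.

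Counted over the classes, 2 of 18 tested SR and CLK members passed the threshold as higher and 4 as lower in total RNA of A-431, where 10.2% of all 16376 tested genes were higher and 9.51% lower. For U-251MG, 1 member of 18 was higher (SRPK2) and 1 lower (CLK2), beside 5.93% and 6.98% of 16128 genes. For U-2 OS, 3 members of 19 were higher and 0 lower, beside 4.75% and 3.61% of 18049 genes, and 3 members (CLK1, CLK2 and CLK3) were lower at an unadjusted p under 0.05 beside 19.1% of all genes, while DESeq2 called 0 lower, beside 4.67% of the genes it tested. Among the 20 hnRNPs, the 4 called members were all those of U-2 OS. As shares of the members tested, the SR and CLK class had 11.1% higher and 22.2% lower in A-431, 5.56% each way in U-251MG and 15.8% higher in U-2 OS, and the hnRNP class 20% higher in U-2 OS. The share lower in A-431 and those higher in U-2 OS were above the background, on 4, 3 and 4 genes, while the other shares were near or below it. In A-431 the median log2 ratio was -0.02 for the SR and CLK class, 0.09 for the hnRNP class and -0.01 for all genes tested. In U-251MG these medians were 0.04, 0.07 and 0.00, and in U-2 OS 0.04, 0.13 and -0.00. The hnRNP ratios were the narrower set: in A-431 they ran from -0.09 to 0.27, against -0.63 to 0.34 for the SR and CLK class. The summed CLK level was 68.9 to 77.9 CPM in A-431 total and 94.1 to 99.1 CPM in A-431 cytoplasmic libraries, 72.5 to 85.2 and 95.6 to 111 CPM in U-251MG, and 65.4 to 72.8 and 76.2 to 82.6 CPM in U-2 OS. The summed SRPK level was 391 to 413 CPM in A-431 total and 289.9 to 339 CPM in A-431 cytoplasmic libraries, 306 to 380.0 and 237 to 264 CPM in U-251MG, and 252 to 265 and 223 to 242 CPM in U-2 OS. Since CPM is a share of the library, a smaller share of 1 transcript and a larger share of others cannot be told apart.

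**Figure D3:**
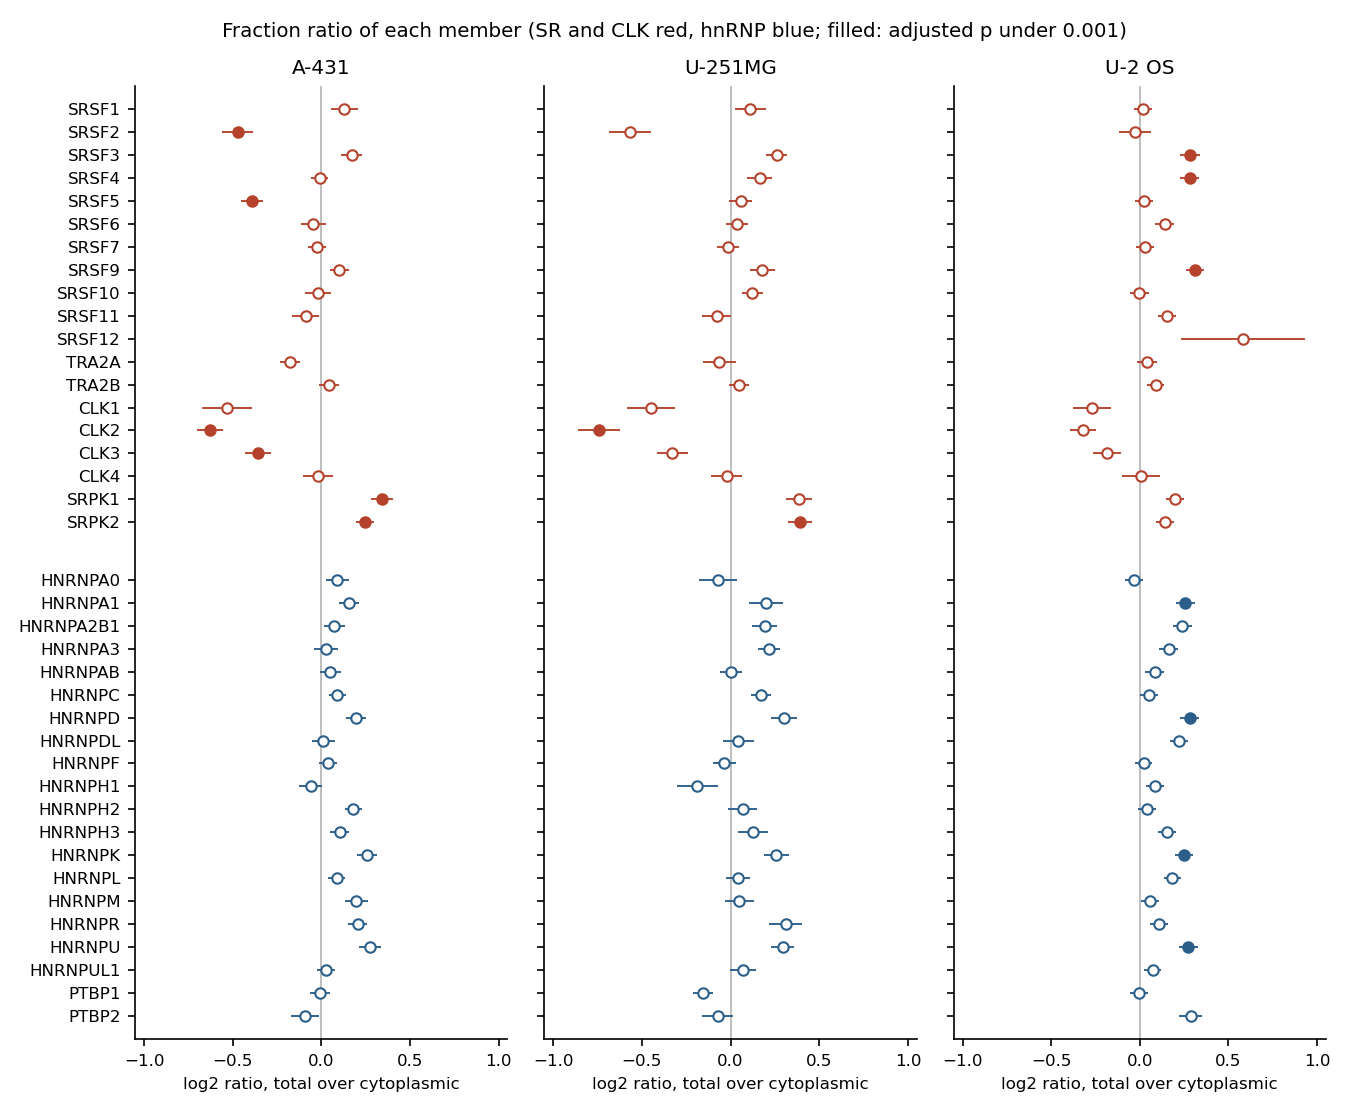
Log2 ratio of total over cytoplasmic RNA (horizontal axis) with its standard error for the tested members, SR and CLK class in red above and hnRNP class in blue below, in A-431, U-251MG and U-2 OS; filled circles passed an adjusted p of 0.001. CLK2 lies at -0.63, -0.74 and -0.32, and hnRNP members lie within -0.19 and 0.31 in all 3 lines.

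Across all genes the ratio fell with the GC content of the transcript, with a Spearman correlation of -0.67 in A-431 (15474 genes), -0.74 in U-251MG (15296 genes) and -0.56 in U-2 OS (17049 genes). Among the members it was weaker, at -0.16 (38 genes), -0.29 (38 genes) and -0.28 (39 genes). The points share libraries and are given as a description. With the GC offset, the class medians in A-431 were -0.22 for the SR and CLK class and -0.00 for the hnRNP class. In U-251MG they were -0.14 and 0.01, and in U-2 OS -0.01 and 0.11. The difference between the class medians (SR and CLK minus hnRNP) was -0.11, -0.03 and -0.09 in A-431, U-251MG and U-2 OS without the offset. The SD between single libraries within a group was 0.0294, 0.0495 and 0.0316, which is not the error of that difference. Fits without single libraries gave -0.17 to -0.0945, -0.096 to -0.0151 and -0.098 to -0.026 in the same order of lines. The class difference itself was not tested. In A-431 the offset moved the difference to -0.22 and the called members to 2 higher (HNRNPL and PTBP1) and 8 lower (SRSF2, SRSF5, SRSF6, SRSF7, SRSF10, TRA2A, CLK2 and PTBP2). Of all 16376 genes tested, 604 were then called higher and 708 lower.

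**Figure D4:**
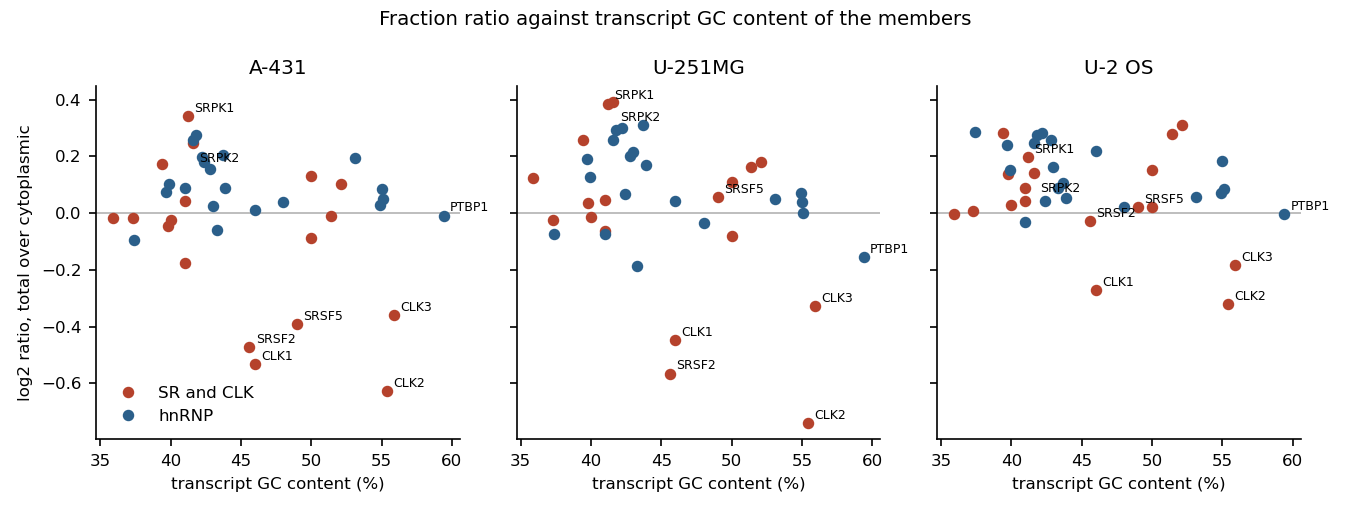
Log2 ratio of total over cytoplasmic RNA (vertical axis) against transcript GC content in percent (horizontal axis) for the members other than SRSF12, in A-431, U-251MG and U-2 OS, with the SR and CLK class in red and the hnRNP class in blue. CLK1 and SRSF2, at 46.0% and 45.6% GC, lie as low as the GC-rich CLK3 in A-431 and U-251MG, and PTBP1 at 59.4% lies near 0 in A-431 and U-2 OS.

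The next question was whether a ratio differed between cell lines, tested as an interaction term in 1 model over the 6 groups, with calls at an adjusted p under 0.05. SRSF5 was the clearest case. Its log2 ratio in this model was -0.41 for A-431, 0.08 for U-251MG and 0.02 for U-2 OS, so that A-431 lay 0.48 below U-251MG (standard error 0.0838, adjusted p = 0.00438) and 0.42 below U-2 OS (standard error 0.0869, adjusted p = 0.00599). The calls held without any single library (adjusted p of at most 0.0252 and 0.0301). The A-431 fractions ran on separate flow cells, so in comparisons with A-431 a difference between lines cannot be told apart from the flow cell. SRSF4 also differed between A-431 and U-2 OS, with log2 ratios of -0.02 and 0.28, a difference of -0.30 and an adjusted p of 0.0493 that was lost with RLE size factors, with no filter on low counts, with all deposited libraries and in 18 of the 23 fits that left out a single library. Thus 2 SR and CLK members were called between A-431 and U-2 OS, beside 2.12% of 19948 genes, 1 between A-431 and U-251MG, beside 0.16%, and 0 between U-251MG and U-2 OS, beside 1.67%. DESeq2 called 2 of them (SRPK2 and SRSF2) between U-251MG and U-2 OS, beside 7.74% of the genes it tested, where 4 had an unadjusted p under 0.05, beside 19.3%. Of the hnRNPs, 0 were called in any pair, 1, 1 and 3 had an unadjusted p under 0.05 in the same order of pairs, beside 14.6%, 7.66% and 19.3% of all genes, and DESeq2 called 1 between A-431 and U-2 OS, beside 5.18%. The ratio of CLK2 differed by -0.32 between A-431 and U-2 OS, by 0.08 between A-431 and U-251MG and by -0.40 between U-251MG and U-2 OS (adjusted p = 0.277, 0.938 and 0.120), so its missing call in U-2 OS does not show a different ratio there.

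**Figure D5:**
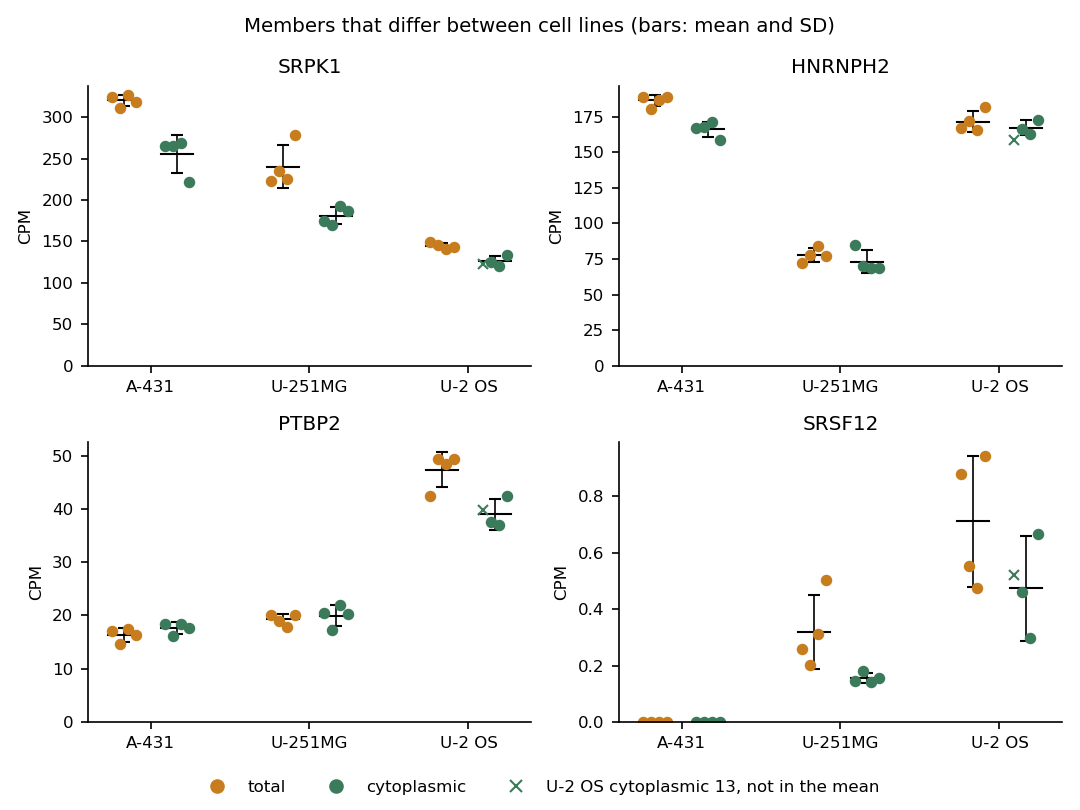
CPM of SRPK1, HNRNPH2, PTBP2 and SRSF12 (vertical axes from 0) in every total (orange, left) and cytoplasmic (green, right) library of A-431, U-251MG and U-2 OS, with group means and SD in black and U-2 OS cytoplasmic 13 as a cross. PTBP2 is highest in the U-2 OS libraries, HNRNPH2 lowest in the U-251MG libraries and SRSF12 at 0 in all A-431 libraries.

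The last question was how the members differed between the cell lines themselves, with calls at an adjusted p under 0.001 and a log2 difference of at least 1. In bulk RNA, fewer cells that express a gene and less RNA per cell cannot be told apart. Without the size limit, 9 SR and CLK and 10 hnRNP members passed the p limit in total RNA between A-431 and U-2 OS, 7 and 8 between A-431 and U-251MG and 10 and 11 between U-251MG and U-2 OS, beside 65.9%, 57.6% and 62.9% of all genes. Few of these differences reached the size limit. In total RNA, 3 members were called between A-431 and U-2 OS (2 SR and CLK, 1 hnRNP), 2 between A-431 and U-251MG (1 and 1) and 2 between U-251MG and U-2 OS (0 and 2), beside 39.3%, 30.7% and 36.1% of 19948 genes. The counts in cytoplasmic RNA were 3 (2 and 1), 3 (2 and 1) and 1 (0 and 1), beside 38.9%, 31.5% and 35.1%. Without the size limit they were 12 and 10, 7 and 9, and 10 and 9, beside 64.3%, 58.6% and 61.2%.

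PTBP2, the neuronal relative of PTBP1 that represses exons in developing neurons (chromosome 1, 97187221 to 97289294), was lower in A-431 and U-251MG than in U-2 OS. It had 17.1, 14.6, 17.4 and 16.3 CPM in A-431 total libraries, 20.1, 18.9, 17.9 and 20.1 CPM in U-251MG total libraries and 42.4, 49.3, 48.4 and 49.4 CPM in U-2 OS total libraries. The U-2 OS libraries lay above all others, with log2 differences of -1.54 for A-431 over U-2 OS (standard error 0.0799, adjusted p = 3.92e-18) and -1.30 for U-251MG over U-2 OS (standard error 0.0792, adjusted p = 3.55e-16). In cytoplasmic RNA these were -1.15 and -0.97, and only the first passed the size limit. A-431 and U-251MG, the neighbours in level, differed by -0.24 (adjusted p = 0.0110).

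HNRNPH2, an X-linked paralogue of HNRNPH1 that binds G-runs (chromosome X, 100663210 to 100669121), was low in U-251MG. It had 189, 181, 187 and 189 CPM in A-431 total libraries and 72.2, 77.5, 83.8 and 77.3 CPM in U-251MG total libraries, a log2 difference of 1.26 for A-431 over U-251MG (standard error 0.0624, adjusted p = 1.16e-18). For U-251MG over U-2 OS, where total libraries had 167, 172, 166 and 182 CPM, it was -1.14 (adjusted p = 1.84e-17). A-431 and U-2 OS did not differ beyond the threshold (0.12, adjusted p = 0.0719). HNRNPH1 was on the other side, at 820.1 ± 114 CPM in U-251MG total against 524 ± 25.8 CPM in U-2 OS total libraries (SD, n = 4 each), a log2 difference of 0.65 that passed the p limit (adjusted p = 2.98e-08) but not the size limit. These paralogues are similar in sequence, so reads could be split between them, and a readthrough gene overlaps 15.8% of the HNRNPH2 exon bases.

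SRPK1, whose values in every library stand with the fractions above, was highest in A-431, at 321 ± 6.85 CPM in A-431 total, 240.4 ± 25.8 in U-251MG total and 145 ± 3.70 in U-2 OS total libraries (SD, n = 4 each), with a log2 difference of 1.15 for A-431 over U-2 OS (standard error 0.0674, adjusted p = 1.03e-16). In cytoplasmic RNA it was 1.01, and it fell below the size limit with RLE size factors. SRSF12 had 0 counts in all 4 A-431 total libraries, against 5, 6, 7 and 14 counts in U-251MG total libraries and 20, 13, 13 and 27 counts in U-2 OS total libraries. The limit that 0 counts allow was taken as 3 counts over the A-431 group, and the counts of the other lines as exact. On these terms SRSF12 in A-431 total RNA was at least 26.6-fold below U-2 OS and 11.01-fold below U-251MG. In cytoplasmic RNA, also at 0 counts in A-431, the limits were 20.2-fold and 6.27-fold, on 40 and 17 counts. The spread of these low counts is not part of the limits. SRSF5 passed the size limit only in cytoplasmic RNA, with a log2 difference of 1.23 for A-431 over U-251MG (adjusted p = 6.64e-19), against 0.75 in total RNA. Below the size limit, SRSF6 had 160.4 ± 9.55 CPM in A-431 total libraries, 247 ± 11.3 in U-251MG total and 245 ± 11.95 in U-2 OS total libraries (SD, n = 4 each), and CLK3 had 28.3 ± 2.31, 29.1 ± 1.73 and 16.97 ± 0.493 CPM.

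Beyond the members, 3 lists of splicing regulators were counted in the fraction comparison. A list of 36 SR-related genes held no classical SR protein, and many, but not all, of its members carry RS-like regions. Of the 36, 6 were higher and 4 lower in total RNA of A-431. The corresponding counts were 5 and 2 for U-251MG, 3 and 2 for U-2 OS. As shares these were 16.7% and 11.1%, 13.9% and 5.56%, and 8.33% and 5.56%, beside the 10.2% and 9.51%, 5.93% and 6.98%, and 4.75% and 3.61% of all genes. SRRM2, the large protein on which nuclear speckles are built, was lower in total RNA in all 3 lines, at log2 ratios of -0.41, -0.70 and -0.55 in A-431, U-251MG and U-2 OS (adjusted p = 2.52e-05, 8.66e-05 and 5.24e-07). PPIG, a nuclear cyclophilin with an RS domain, was higher in all 3, at 0.42, 0.67 and 0.44 (adjusted p = 4.29e-05, 0.000120 and 9.73e-07). SON, the other speckle core protein, was higher in A-431 total RNA at 0.67 and SCAF11 at 0.53. Of 26 other RNA-binding proteins, 7 were higher and 1 lower in A-431, and 4 of the 25 tested in each of the other lines were higher, or 26.9% of the list higher in A-431 and 16% in the others. No set test was run on these lists. QKI and MBNL2, regulators of tissue-specific exons, were higher in total RNA of each line, with log2 ratios of 0.40, 0.56 and 0.33 for QKI and 0.38, 0.55 and 0.30 for MBNL2. Of 27 core proteins of the spliceosomal particles, 1 was higher in A-431 (SF3B1, 0.24), 0 were called in U-251MG, and of the U-2 OS genes SNRPG was higher (0.29) and SF3B5 lower (-0.28). In U-251MG, 14 of these 27 core genes had an unadjusted p below 0.05, 3 with positive and 11 with negative ratios. Of all genes tested there, 27.3% were higher and 28.3% lower at that limit. In U-251MG, DESeq2 called 3 core genes lower (SNRPA, SNRPB and SF3B5, chosen after their values were seen) and 0 higher. It called 11.5% of the genes it tested there lower and 12.3% higher. In A-431 it called 3 core genes lower and 1 higher, beside 10.9% and 12.8% of the genes it tested. In U-2 OS it called 4 lower and 1 higher, beside 4.67% and 6.36%. With the GC offset, SRRM2 kept its call in U-2 OS, and QKI, MBNL2 and PPIG were not called in any line.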

How the data were processed

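Per the study's methods and the submitters' processing notes, hg19 alignments were made by the authors using TopHat 1.1.4, with SAMtools 0.1.8, from which they deposited raw gene counts made with HTSeq 0.4.6 (Ensembl GRCh37.59 gene models, exons, intersection-strict, without strand). The authors deposited RPKM values made with rpkmforgenes from the same alignments. Trizol extraction and paired-end libraries stand in the labels, RNeasy columns and single reads in the methods. Rows that name no gene held 25.885% to 33.578% of the counts of a library and were left out.

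Counts of all genes were fitted per cell line with edgeR 4.0.16 (TMM, filterByExpr, robust quasi-likelihood F-test, R 4.3.3), with Benjamini-Hochberg adjustment over all genes tested. Ratios are log2 of total over cytoplasmic, called at an adjusted p under 0.001. Differences of ratios (adjusted p under 0.05) and of cell lines came from 1 model over the 6 groups. Alternatives were DESeq2 1.42.0, RLE size factors, no filter, limma 3.58.1 on log2(RPKM + 0.1), a GC offset, flow cell A, all libraries, a replicate block and single libraries left out. Scripts were tested on simulated data. CPM and p-values cover these libraries only.

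The 40 members, the gene lists and the tests were chosen with earlier results of these data known. Values in every library are given for members called in at least 2 lines in the same direction, for up to 3 called members per line and direction with the largest ratio, for members past both limits between lines, for the 2 members per class with the highest RPKM, and for CLK1, CLK4 and PTBP2. Of the other lists, up to 2 called genes per list and line are named.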

Additional observations from a re-analysis of the deposited data

Results flagged for a closer look

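Of 113 checks, each of the level of 1 gene or sum in 1 group of 4 libraries, 12 held a library far from the other 3. A single check does so by chance in about 1 in 20. The checks share libraries, and some sums contain genes that were also checked alone, so the 12 cannot be set against that rate. A-431 cytoplasmic 24 accounted for 6 of these. Its summed SR and CLK level was 2805 CPM (others 3222 to 3254), its summed hnRNP level 7389 CPM (others 8207 to 8370) and its summed SRPK level 289.9 CPM (others 336.6 to 339.3). In the same library SRPK1 had 221.4 CPM (others 265.7 to 269.2), HNRNPU 607.6 CPM (others 706.9 to 724.6) and CLK1 8.583 CPM (others 11.24 to 11.7). A-431 total 11 was high in the summed SR and CLK level at 3330 CPM (others 3102 to 3126), in CLK2 at 25.51 CPM (others 20.91 to 21.19) and in NEAT1 at 321.4 CPM (others 177.5 to 184.9). U-251MG cytoplasmic 17 was high in the summed hnRNP level at 8568 CPM (others 7916 to 8018) and in HNRNPH2 at 85.08 CPM (others 68.37 to 70.18). PTBP2 in U-2 OS total 1 was low at 42.4 CPM (others 48.38 to 49.35).

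The ratio of total over cytoplasmic RNA differed between lines for SRSF5, by -0.42 between A-431 and U-2 OS and by -0.48 between A-431 and U-251MG on the log2 scale, and for SRSF4, by -0.30 between A-431 and U-2 OS (interaction terms of edgeR, adjusted p = 0.00599, 0.00438 and 0.0493). The A-431 fractions were sequenced on separate flow cells, so the parts of the flow cell and of the line in these differences cannot be told apart.

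U-2 OS cytoplasmic 13, which entered only the fits with all deposited libraries, had a summed CLK level of 101.5 CPM. The U-2 OS total libraries had 65.42 to 72.85 CPM. The other 3 U-2 OS cytoplasmic libraries, at 76.2 to 82.6 CPM, also lay above these. Library 13 had the most MALAT1 (74.7 CPM), NEAT1 (1089.5 CPM) and reads outside genes (18.6%) of the U-2 OS libraries. The study discarded 1 U-2 OS cytoplasmic replicate that showed the nuclear peak, and whether it is this library is not known.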

How the results depend on the processing

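The serial numbers in the labels pair no groups. A replicate block on the numbers of the study's read table, chosen after seeing the data, called 9 members in A-431, 1 in U-251MG (SRPK2 lost) and 17 in U-2 OS (CLK2 among 10 gained). In the same order of lines, the block called 4293 of 16376, 1582 of 16128 and 3388 of 18049 genes tested. The deviations of same-numbered libraries correlated above 0.1 in 5 of 11 pairs (r from -0.38 to 0.30), and the cytoplasmic library correlated best with its own number in 6 of 11 pairs, 3 of 3 in U-2 OS, so the numbers were not taken as pairing the libraries. None of the 29 named member results reversed under any of 586 alternatives, of which 453 kept the side of the threshold, 123 lost a call and 10 gained one. Some of these could hardly change a result. An adjusted p under 0.05 reuses the main fit, and comparisons between lines were also refitted without libraries of groups not compared. In A-431, with 6 members called, DESeq2 called 10, an adjusted p under 0.05 16, the GC offset 10 and limma on RPKM 1 (SRPK1). Leaving out single libraries gave 2 to 7, with the lowest count without total 9 (CLK2 and SRSF5). Over all genes, the main fit called 3234 of 16376 and DESeq2 4400 of 18561. An adjusted p under 0.05 called 8283 of 16376 genes, the GC offset 1312 and limma 255. Fits without single libraries called 1815 to 3874 genes. In U-251MG, with 2 called, DESeq2 called 8, an adjusted p under 0.05 15, no filter 4 and 1 model over the 6 groups 9. Flow cell A, limma and the GC offset called 0 each, and leaving out single libraries gave 0 to 2. Over all genes, the main fit called 2083 of 16128, DESeq2 4163 of 17507 and an adjusted p under 0.05 7877 of 16128. No filter called 3765 of 27797 genes and the 6-group model 4948 of 19948. Flow cell A called 52 of 16483, limma 3 and the GC offset 243 of 16128. Fits without single libraries called 533 to 1837 genes. In U-2 OS, with 7 called, an adjusted p under 0.05 gave 18, no filter 11 and the GC offset 4. Limma and 1 model over the 6 groups gave 0 each, and leaving out single libraries 0 to 11. Over all genes, the main fit called 1509 of 18049, an adjusted p under 0.05 5157 and the GC offset 540. No filter called 2194 of 30047 genes, limma 0 and the 6-group model 190 of 19948. Fits without single libraries called 459 to 2612 genes. The A-431 and U-2 OS ratios differed in 2 members, and in 1 with RLE size factors, all libraries or no filter, and in 1 to 2 without single libraries. Over all genes, they differed in 422 of 19948 in the main fit and in 430 of 19948 with RLE size factors. With all libraries they differed in 237 of 19738 genes, and with no filter in 595 of 32931. For U-251MG and U-2 OS, with 0 called, DESeq2 called 2 (SRPK2 and SRSF2), no filter 1 (SRSF2) and fits without single libraries 0 to 2, CLK2 among them without U-251MG cytoplasmic 19. Over all genes, DESeq2 called 1111 of 14352 and the fit without a filter 806 of 32931. In cytoplasmic RNA, U-251MG over U-2 OS gave 1 call, and 2 with all libraries (SRSF12). With all libraries, 2627 of 19738 genes were called higher and 4440 lower. The SR and CLK median minus the hnRNP median moved with the GC offset to -0.22 (A-431) and -0.15 (U-251MG), with limma on RPKM to -0.20 in U-251MG, and within flow cell A to -0.11 for U-251MG and -0.026 for U-2 OS. Without single libraries it ranged from -0.17 to -0.0945 for A-431, from -0.096 to -0.0151 for U-251MG and from -0.098 to -0.0259 for U-2 OS. The causes were not tested. With 3 or 4 libraries a group, calls near the threshold depend on single libraries, and SRSF12, with at most 27 counts in a U-2 OS total library, has the lowest precision.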
